A study of Mus musculus with 41 samples.

Results

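Granule neurons are the small glutamatergic cells of the cerebellar cortex, and 10 genes of their mature state were followed here among the 22438 genes with footprint counts: Gabra6, Grin2c, Cbln1, Cbln3, Neurod1, Calb2, Etv1, Fat2, Kcnd2 and Zic1. The genes were taken by symbol, and all 10 passed the filter on low counts in the cerebellum. The study asked how loss of ribosome rescue factors alters translation in developing tissues, and it sequenced ribosome footprints, the stretches of mRNA that translating ribosomes protect from nuclease. The main comparison was of P14 cerebella, with 3 Tg(Atoh1-Cre); Hbs1l cKO libraries (Hbs1l fl/-) and 3 control libraries that carried Tg(Atoh1-Cre) and intact Hbs1l (Hbs1l +/+), each from 1 cerebellum of the C57BL/6J strain, which has a hypomorphic allele of the brain-specific arginine tRNA gene n-Tr20. Tg(Atoh1-Cre) acts in granule cell precursors and is expressed more strongly in the anterior than in the posterior lobes, so the other cells of the cKO cerebella keep the floxed copy but carry the null allele, while the cells of the controls have both copies. For reference, 3 Hbs1l -/- and 3 wild type libraries of pooled whole embryos at E8.5 (C57BL/6NJ) were used. Mouse embryonic fibroblasts (MEFs, C57BL/6) gave 3 footprint libraries for each of the labels Hbs1l cKO, Pelo cKO and Upf2 cKO, all with CAG-Cre ER and tamoxifen, with 3 CAG-Cre ER controls in the pool of each and 11 RNA libraries. The MEFs also had the C57BL/6J allele of n-Tr20, and their cKO genotypes were Hbs1l fl/-, Pelo fl/fl and Upf2 fl/fl. HBS1L and PELO together rescue stalled ribosomes, and UPF2 acts in nonsense-mediated decay.

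Granule cell precursors divide in the external layer of the cerebellum after birth, leave the cell cycle, and migrate inward to the internal granule layer, where they receive mossy fibres and send parallel fibres to Purkinje cells. Along the way, genes of proliferation and migration are shut off and genes of the mature synapse are switched on, among them Gabra6 and Grin2c, which replace receptor subunits of younger cells. At P14 both steps are under way, so a whole cerebellum holds precursors, migrating cells and mature granule neurons. In such bulk libraries, fewer cells of a type and fewer footprints per cell cannot be told apart.

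Hbs1l itself had 14.5 ± 1.5 CPM in the cKO and 40.8 ± 3.55 CPM in control cerebella (SD, n = 3 each), where CPM is the footprint count scaled to library size with TMM factors, and it fell by 1.5 on the log2 scale (edgeR adjusted p = 0.0128). Library totals lay between 10919139 and 22591768 counts in cerebella and between 2634480 and 7298812 in embryos, and a member's count in a cerebellar library lay between 557 (Etv1) and 35274 (Fat2). Among the controls, replicates 1 and 2 were close, with a median absolute log2 difference over genes of 0.116, while replicate 3 differed from them by 0.296 and 0.266, and the cKO libraries differed from each other by 0.180 to 0.219. Control replicate 3 therefore stood apart, and each member's result in the cerebellum is also given without it where the log2 fold change moved by over 1.5 times. The gene lists were refitted with each of the 6 libraries left out in turn, an alternative chosen after seeing the data. The edgeR quasi-likelihood test called 9 of 14430 genes at an adjusted p of 0.05 or less (0.0624%). The count rested on single libraries: it was 560 without control replicate 3, 88 without cKO replicate 2, and 0 without any 1 of the remaining libraries (cKO replicate 1 or 3, control replicate 1 or 2), so the Hbs1l call was lost in those fits too. The fits and sums of the cell type lists used below cover only genes that passed the filter on low counts. That filter leaves out any gene at 0 in all 6 cerebella.

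None of the 10 members was among the 9 called genes. Of the 10, 9 had a lower mean in the cKO than in the control cerebella and 1, Zic1, a higher mean, while 50% of all genes tested had a log2 fold change below 0. The median log2 fold change was -0.41 over the members and 0.000244 over all genes. An unadjusted p below 0.05 was reached by 2 members, Gabra6 and Cbln3, both lower, where 6.28% of all genes were lower at that level. The same 2 members were the ones whose 3 cKO libraries all lay below the 3 controls, against 8.91% of all genes. DESeq2 called these 2 members and 484 genes in all. Without control replicate 3 the members' median was -0.23 and 7 of 10 were lower. It was -0.27 without cKO replicate 1 and -0.61 without cKO replicate 2, with 9 of 10 lower in each.

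**Figure D1:**
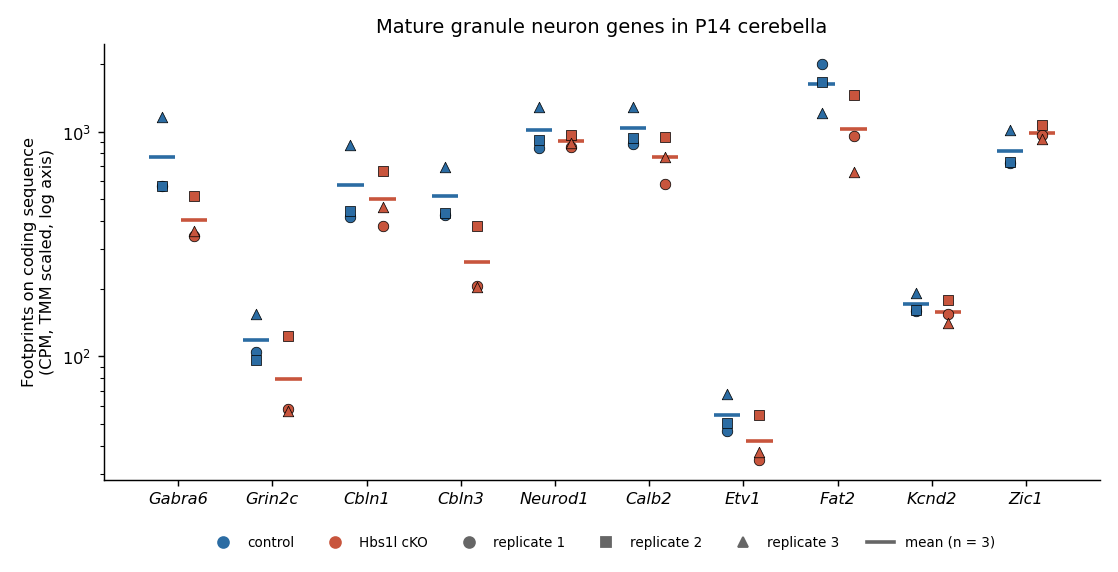
Footprint level of each member (CPM, TMM scaled, log axis) in the 3 control (blue) and 3 Hbs1l cKO (red) cerebella; symbols mark the replicate and bars the group mean. The groups separate for Gabra6 and Cbln3, and control replicate 3 is the highest library for 8 of 10 members.

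The promoters of Gabra6, Cbln3 and Zic1 are printed because these members mark the ends of the pattern: Gabra6 and Cbln3 had separate groups, and Zic1 was the member with a higher mean. Sequences are from RefSeq's mouse promoters (GRCm38.p6), which held 9 windows of 250 bases before a start for 8 of the members; Cbln1 and Calb2 had no entry. The parts shown are those before the Gencode M21 gene start, 5′ to 3′ on the strand of the gene: Gabra6 at chr11:42321073-42321322, Cbln3 at chr14:55884393-55884506 and Zic1 at chr9:91365811-91366018, all on the minus strand. Capitals mark matches to CANNTG, the E-box bound by basic helix-loop-helix factors such as NEUROD1 and ATOH1, and to TTGGC on either strand (GCCAA on the other), the NFI half-site. Distances are from the first base of a match to the RefSeq start, which for Cbln3 and Zic1 lies inside the Gencode M21 gene and so beyond the end of the part shown.
Gabra6: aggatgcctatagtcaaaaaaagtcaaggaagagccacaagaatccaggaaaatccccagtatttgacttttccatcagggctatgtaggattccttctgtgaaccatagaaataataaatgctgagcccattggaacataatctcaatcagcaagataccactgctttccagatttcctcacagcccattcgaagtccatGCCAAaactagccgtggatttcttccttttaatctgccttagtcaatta
Cbln3: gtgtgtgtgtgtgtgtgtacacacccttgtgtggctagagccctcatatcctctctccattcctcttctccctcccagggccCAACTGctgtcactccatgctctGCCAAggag
Zic1: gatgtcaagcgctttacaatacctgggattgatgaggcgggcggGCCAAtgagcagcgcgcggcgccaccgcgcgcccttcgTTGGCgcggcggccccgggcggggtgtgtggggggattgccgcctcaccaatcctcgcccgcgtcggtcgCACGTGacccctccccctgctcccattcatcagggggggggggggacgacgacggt
Gabra6 held 1 TTGGC match, 49 bases before the RefSeq start, and no CANNTG. Cbln3 held CAACTG 168 bases before its RefSeq start and TTGGC 145 bases before it. Zic1 held CACGTG 98 bases before its RefSeq start and 2 TTGGC matches. No match overlapped another. Over the 9 windows, 5 held CANNTG and 5 held TTGGC, and of 32536 mouse promoters of the same length 66.2% held CANNTG and 41.6% held TTGGC. These matches describe letters in the windows, and binding was not measured.

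Gabra6 encodes the α6 subunit of GABA-A receptors, the subunit that sets mature cerebellar granule cells apart (chr11:42306437-42321072, minus strand). Its level was 343, 516 and 359 CPM in cKO replicates 1, 2 and 3, and 575, 576 and 1166 CPM in control replicates 1, 2 and 3. All 3 cKO libraries lay below all 3 controls, and control replicate 3 was far above the other controls. The means were 406 ± 95.2 and 772 ± 341 CPM (SD, n = 3), 47.4% lower in the cKO, with a log2 fold change of -0.93 (SE 0.30) that did not pass the threshold (edgeR adjusted p = 0.240, from 0.0321 with DESeq2 to 0.659 over the alternatives). Without control replicate 3 the log2 fold change was -0.50.

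Other GABA-A subunits went in both directions. Of 12 tested, 7 were higher and 5 lower, with a median log2 fold change of 0.10 and none called. The median ranged from 0.0079, without control replicate 2, to 0.29 without control replicate 3, and in the latter fit 2 were called, 1 in each direction, of which Gabra2 was the higher. Gabra2, an α subunit prominent in younger neurons, had 102 ± 2.07 CPM in the cKO and 64.9 ± 1.38 CPM in the controls, a log2 fold change of 0.65 (SE 0.10, edgeR adjusted p = 0.0766), which was 0.63 (adjusted p = 0.0219) without control replicate 3. Gabrb2 had -0.36 (SE 0.12, edgeR adjusted p = 0.2495). The groups did not overlap for either of these subunits. The summed level of the 12 lay between 2155 and 2522 CPM in the cKO and between 2795 and 3028 CPM in the controls.

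Grin2c encodes the GluN2C subunit of NMDA receptors, which comes on in granule cells as they mature (chr11:115249169-115267243, minus strand). It had 58.3, 122.9 and 57.2 CPM in the cKO replicates and 104, 96.0 and 154 CPM in the controls. Replicates 1 and 3 of the cKO lay below every control, and replicate 2 lay above controls 1 and 2. The mean was 32.8% lower in the cKO, with a log2 fold change of -0.58 (SE 0.31, edgeR adjusted p = 0.468), -0.35 (adjusted p = 0.534) without control replicate 3 and -1.04 (adjusted p = 0.0801) without cKO replicate 2. Of 6 other NMDA receptor subunits, 3 were higher and 3 lower with a median of 0.04 and none called, and that median ranged from -0.015 to 0.096 with 1 library left out. Grin1, the obligatory subunit, had a log2 fold change of -0.42 (SE 0.17, edgeR adjusted p = 0.339), and Grin2b, the subunit of immature granule cells, had 0.47 (SE 0.21, edgeR adjusted p = 0.371), or 0.31 without control replicate 3 and 0.28 without cKO replicate 1.

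Cbln1 and Cbln3 encode cerebellins, secreted proteins of parallel fibres that link presynaptic neurexins to the postsynaptic side of the synapse on Purkinje cells; CBLN3 depends on CBLN1 for secretion. Cbln3 (chr14:55878913-55884392, minus strand) had 206, 378 and 204 CPM in the cKO replicates and 425, 435 and 698 CPM in the controls. The highest cKO library lay below the lowest control. The means were 263 ± 100.03 and 520 ± 155 CPM, 49.4% lower in the cKO, with a log2 fold change of -0.99 (SE 0.29, edgeR adjusted p = 0.202, from 0.0163 with DESeq2 to 0.625 over the alternatives). It was -0.72 without control replicate 3 and -1.34 (adjusted p = 0.0641) without cKO replicate 2.

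Cbln1 (chr8:87468405-87472609, minus strand) had a smaller difference than Cbln3, and the difference between the pair was not tested. It had 382, 665 and 463 CPM in the cKO replicates and 417, 442 and 873 CPM in the controls, so the groups overlapped and cKO replicates 2 and 3 each exceeded 2 of the controls. The log2 fold change was -0.20 (SE 0.31, edgeR adjusted p = 0.824), 0.23 (SE 0.22) without control replicate 3 and -0.45 (SE 0.34) without cKO replicate 2. Of 7 other genes of the cerebellin bridge, 4 were higher and 3 lower with a median of 0.01 and none called, and that median ranged from -0.033 to 0.091 with 1 library left out. Nrxn3, a neurexin gene, had a log2 fold change of -0.43 (SE 0.17, edgeR adjusted p = 0.320), and Cbln4 had 1.59 (SE 0.67, adjusted p = 0.352) at a mean below 10 CPM in either group.

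Neurod1, Etv1 and Zic1 encode transcription factors. Neurod1 (chr2:79452521-79456751, minus strand), a basic helix-loop-helix factor of granule cell differentiation, had 852, 968 and 892 CPM in the cKO replicates and 844, 922 and 1285 CPM in the controls. The cKO libraries lay within the range of the controls. The log2 fold change was -0.17 (SE 0.18, edgeR adjusted p = 0.726), and 0.03 (SE 0.12) without control replicate 3. Etv1 (chr12:38779380-38870484, plus strand), an ETS factor that in granule cells drives maturation genes including Grin2c, had 34.6, 54.7 and 37.4 CPM in the cKO and 46.4, 50.3 and 67.7 CPM in the controls. Its second cKO library lay among the controls and the other two lay below them. The log2 fold change was -0.39 (SE 0.21, edgeR adjusted p = 0.466), -0.21 (adjusted p = 0.545) without control replicate 3 and -0.61 (adjusted p = 0.165) without cKO replicate 2.

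Zic1 (chr9:91358058-91365810, minus strand), a zinc finger factor made in precursors and mature granule cells alike, was the only member with a higher mean in the cKO. It had 962, 1075 and 924 CPM in the cKO replicates and 727, 731 and 1012 CPM in the controls. Control replicate 3 lay among the cKO libraries, and the other controls lay below them. The means were 987 ± 78.5 and 823 ± 164 CPM, a ratio of 1.20 and a log2 fold change of 0.26 (SE 0.17, edgeR adjusted p = 0.549), which was 0.44 (adjusted p = 0.0808) without control replicate 3. The Zic1 coding exons overlap an exon of Zic4 on the opposite strand, and how the counting treated strand is not given in the sources used here; Grin2c and Neurod1 likewise overlap predicted genes on the opposite strand. Of 14 other transcription factors of the lineage, 13 were higher and 1 lower in the cKO, with a median log2 fold change of 0.26 and none called. Without control replicate 3 the median was 0.44 and 5 were called, all higher: Nfia and Nfib (edgeR adjusted p = 0.0263 and 0.0278), Atoh1, Neurod4 and Zic4, the last of which overlaps Zic1. Nfia and Nfib, NFI factors of granule cell maturation, had 0.43 (SE 0.17, edgeR adjusted p = 0.320) and 0.62 (SE 0.16, adjusted p = 0.155), and the groups did not overlap for either.

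Calb2 encodes calretinin, the calcium buffer of granule cells and unipolar brush cells (chr8:110137502-110168210, minus strand). It had 584, 944 and 773 CPM in the cKO replicates and 885, 936 and 1289 CPM in the controls. Only cKO replicate 2 reached the range of the controls. The mean was 26.0% lower in the cKO, with a log2 fold change of -0.43 (SE 0.22, edgeR adjusted p = 0.429), and it was -0.25 (SE 0.19, adjusted p = 0.460) without control replicate 3 and -0.27 (adjusted p = 0.780) without cKO replicate 1. The unipolar brush cell list, Eomes, Lmx1a and Otx2, had summed levels of 70.2 to 74.0 CPM in the cKO and 48.3 to 61.3 CPM in the controls.

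Fat2 encodes a giant cadherin of granule cell axons (chr11:55250609-55336564, minus strand) and had 959, 1458 and 663 CPM in the cKO replicates and 2003, 1665 and 1208 CPM in the controls. Replicate 2 of the cKO reached the range of the controls, and here control replicate 3 was the lowest control, the reverse of the other 9 members. The log2 fold change was -0.66 (SE 0.29, edgeR adjusted p = 0.379), -0.84 (adjusted p = 0.128) without control replicate 3 and -1.003 (adjusted p = 0.130) without cKO replicate 2, and -0.43 (adjusted p = 0.726) without cKO replicate 3. The summed Purkinje cell list had the same order among the controls, with 18732, 17210 and 10797 CPM in replicates 1, 2 and 3, and its part in the Fat2 values was not tested.

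Kcnd2 encodes Kv4.2, the pore of the A-type potassium channel of granule cells (chr6:21215503-21729805, plus strand). It had 154, 179 and 140 CPM in the cKO replicates and 159, 160 and 192 CPM in the controls, with overlapping groups and the smallest difference of the 10 members. The log2 fold change was -0.11 (SE 0.14, edgeR adjusted p = 0.769), -0.022 (adjusted p = 0.934) without control replicate 3 and -0.21 (adjusted p = 0.518) without cKO replicate 2. Of 8 genes of other Kv4 pores and of their auxiliary subunits, 6 were lower and 2 higher with a median of -0.42, and none was called, while 5 were lower at an unadjusted p below 0.05. Kcnip1 had -0.64 (SE 0.14, edgeR adjusted p = 0.126), Kcnip2 -0.60 (SE 0.25, adjusted p = 0.346) and Dpp10 -0.60 (SE 0.15, adjusted p = 0.146), and the groups did not overlap for these 3. Of the 8, 2 were called without control replicate 3, both lower, Kcnip1 (-0.75, edgeR adjusted p = 0.0219) and Kcnip4 (-0.56, adjusted p = 0.0400). The summed level of the 8 lay between 900.1 and 1020 CPM in the cKO and between 1186 and 1231 CPM in the controls.

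**Figure D2:**
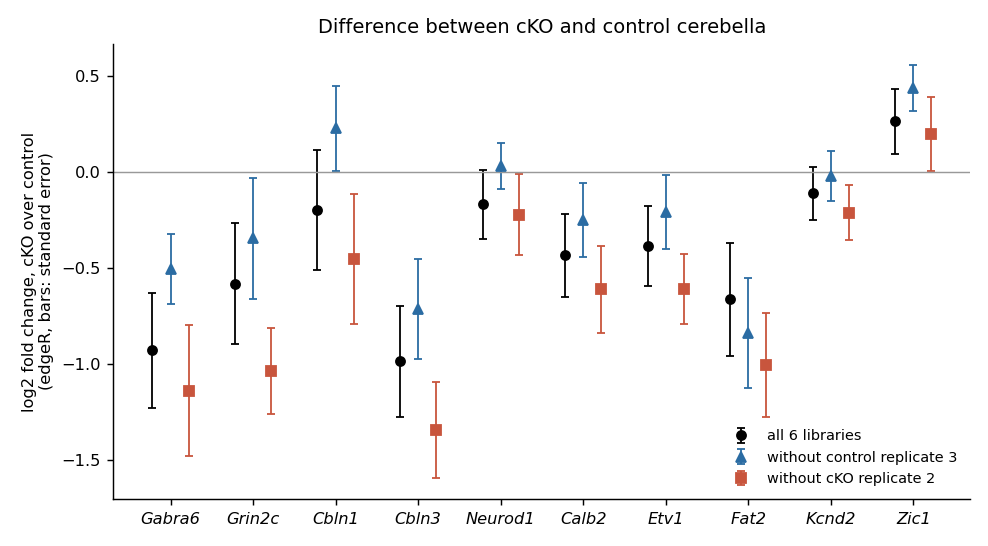
Log2 fold change of each member between cKO and control cerebella (edgeR, bars are SE derived from the F statistic) with all 6 libraries, without control replicate 3 and without cKO replicate 2. Zic1 lies above 0 in each, and Cbln1 (0.23) and Neurod1 (0.03) are above 0 only without control replicate 3.

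Most members varied together between libraries of a group. Replicate 2 was the highest of the cKO libraries for 10 of 10 members, and replicate 3 the highest of the controls for 9 of 10. Over the 6 libraries, which share scaling and depth, the median Pearson correlation of log2 CPM was 0.78 over 45 pairs of members, 42 of them positive, from -0.51 for Fat2 with Zic1 to 0.97 for Grin2c with Etv1. Each member's correlation with the mean of the others lay between 0.84 and 0.98 for 8 members, and was 0.34 for Fat2 and 0.15 for Zic1. The 5 other genes most like the members' mean pattern, of 11650 with a mean of at least 5 CPM, were Cdk16 (r = 0.996), Camta2 (0.995), Cnpy1 (0.994), Kcnk12 (0.993) and Lurap1 (0.993). Camta2 had 98.1, 133 and 97.4 CPM in the cKO replicates and 120, 121 and 157 CPM in the controls, with control replicate 3 highest and cKO replicates 1 and 3 lowest, as for Cbln3.

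Dividing each member's counts by those of Neurod1 in the same library removes a level shared with Neurod1, and these 9 ratios were chosen after the values had been seen. Gabra6 gave 0.403, 0.533 and 0.403 in the cKO replicates and 0.681, 0.624 and 0.908 in the controls. Cbln3 gave 0.242, 0.391 and 0.229 against 0.504, 0.472 and 0.544. Calb2 gave 0.685, 0.976 and 0.867 against 1.05, 1.02 and 1.00. Zic1 gave 1.13, 1.11 and 1.04 against 0.861, 0.793 and 0.788. These 4 ratios did not overlap between groups. They were lower in the cKO for Gabra6, Cbln3 and Calb2, as were 1.19% of the ratios of the 14429 genes tested apart from Neurod1, and higher for Zic1, as were 16.3%. In a two-sided exact permutation test each gave p = 0.1, the smallest that 3 against 3 allows, and 0.225 after Benjamini-Hochberg adjustment over the 9 ratios, so no ratio could pass 0.05. The ratios of Grin2c, Cbln1, Etv1, Fat2 and Kcnd2 overlapped between groups. Neurod1 was itself highest in control replicate 3 (1285 CPM), as were Gabra6, Cbln3 and Calb2. The shares of 1.19% and 16.3% thus depend on the gene chosen to divide by. No conclusion is drawn from the ratios or from these shares.

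Per kilobase of coding sequence, the members differed widely in level in the control cerebella. Calb2 was highest with 1234 ± 261 CPM per kb, followed by Cbln1 (997 ± 443), Neurod1 (950 ± 220), Cbln3 (879 ± 262), Zic1 (614 ± 122) and Gabra6 (554 ± 245). Fat2 (125 ± 30.6) and Kcnd2 (90.2 ± 9.75) formed a middle pair, and Etv1 (34.6 ± 7.16) and Grin2c (31.8 ± 8.51) were lowest. Neighbours in this order overlapped between libraries except Gabra6 with Fat2 and Kcnd2 with Etv1. In the cKO, Zic1 stood above Cbln3 and Kcnd2 above Fat2, and the other places were as in the controls.

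Genes of other stages of the granule lineage were measured in the same libraries. The 14 other genes of mature granule cells had summed levels of 2220, 3179 and 2307 CPM in the cKO replicates and 2619, 2614 and 4006 CPM in the controls, overlapping as the members' own sums did (4514 to 6361 CPM in the cKO and 6013 to 7946 CPM in the controls). Of these 14, 11 were lower and 3 higher with a median log2 fold change of -0.20 and none called. That direction rested on control replicate 3: without it the median was 0.02, with 8 of the 14 higher and 6 lower. Without cKO replicate 2 the median was -0.35, with 11 lower. Chn2, a chimaerin, had -0.62 (SE 0.21, edgeR adjusted p = 0.267), or -0.38 without control replicate 3, the kinase gene Camk4 had -0.44 (SE 0.14, adjusted p = 0.245) and the lineage factor Pax6 had 0.33 (SE 0.12, adjusted p = 0.280).

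The 16 genes of dividing precursors had summed levels of 738 to 934 CPM in the cKO and 470 to 559 CPM in the controls, with no overlap. Of these, 14 were higher and 2 lower with a median of 0.92, and 1 was called: Sfrp1, a secreted Wnt modulator, rose from 31.6 ± 3.08 to 87.6 ± 7.996 CPM (log2 fold change 1.47, SE 0.12, edgeR adjusted p = 0.0128). Ccnd2 had 1.21 (SE 0.21, adjusted p = 0.102), Cdk1 1.42 (SE 0.23, adjusted p = 0.0883) and Top2a 1.43 (SE 0.33, adjusted p = 0.129). The 13 genes of newborn and migrating granule cells had sums of 2720 to 2966 CPM in the cKO and 2135 to 2436 CPM in the controls. Of these, 10 were higher and 3 lower with a median of 0.47, and 2 were called, Insm1 (1.42, SE 0.14, edgeR adjusted p = 0.0154) and Sox11 (1.37, SE 0.13, adjusted p = 0.0128). These 3 genes are among the 9 called in all, and their calls too were lost without cKO replicate 1 or 3 or control replicate 1 or 2, where no gene was called. Without control replicate 3 the median was 0.98 over the precursor genes, 6 of them called, and 0.52 over the genes of newborn and migrating cells, 5 of them called (Dcx, Insm1, Nhlh1, Sox11 and Sox4), each of these called genes higher. Without cKO replicate 2, 4 precursor genes (Ccnd2, Cdk1, Mycn and Sfrp1) and 3 of the others (Insm1, Sox11 and Sox4) were called, again higher.

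Markers of other cell types were measured as well, and none of those given here was called in the main fit. Their part in the members' values was not tested. All 14 Purkinje cell genes were lower in the cKO, 12 of them at an unadjusted p below 0.05 and none called, with a median of -0.70 and sums of 7700 to 10424 CPM in the cKO and 10797 to 18732 CPM in the controls. Pvalb, a calcium buffer of Purkinje cells and interneurons, had -0.77 (SE 0.18, edgeR adjusted p = 0.132), Calb1 -0.92 (SE 0.27, adjusted p = 0.202) and Itpr1 -1.18 (SE 0.46, adjusted p = 0.318), or -0.78 without control replicate 1. The median was -0.87 without control replicate 3, with 13 of the 14 lower and 7 of them called. The sums of the 13 oligodendrocyte genes were 8927 to 11389 CPM in the cKO and 11767 to 13648 CPM in the controls, with 9 genes lower and 4 higher, and the median of -0.14 ranged from -0.17 to -0.46 with 1 library left out. It was lowest without control replicate 3, where 1 gene was called lower, the myelin enzyme gene Cnp (-0.56, edgeR adjusted p = 0.0430). The sums of the 11 Bergmann glia and astrocyte genes overlapped, at 6696 to 7308 and 5905 to 8058 CPM, as did those of the 9 interneuron genes, at 453 to 549 and 526 to 747 CPM. The median of the glial genes was 0.02 and its sign rested on single libraries: it was -0.084, -0.083 and -0.042, with 6 of 11 lower, without control replicate 1, control replicate 2 or cKO replicate 3, and 0.22, with 3 called higher (Aqp4, Fabp7 and Gfap), without control replicate 3. That of the interneuron genes was -0.31, and -0.47 without control replicate 3, with 1 called lower, the glutamate receptor gene Grm2 (-0.76, edgeR adjusted p = 0.0494). Of 7 midbrain and brainstem genes 5 passed the filter, with sums of 52.4, 15.2 and 109 CPM in the cKO replicates and 20.3, 16.0 and 10.7 CPM in the controls. The cKO libraries with the higher sums, replicates 1 and 3, were also those with the lowest level of 4 members each.

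**Figure D3:**
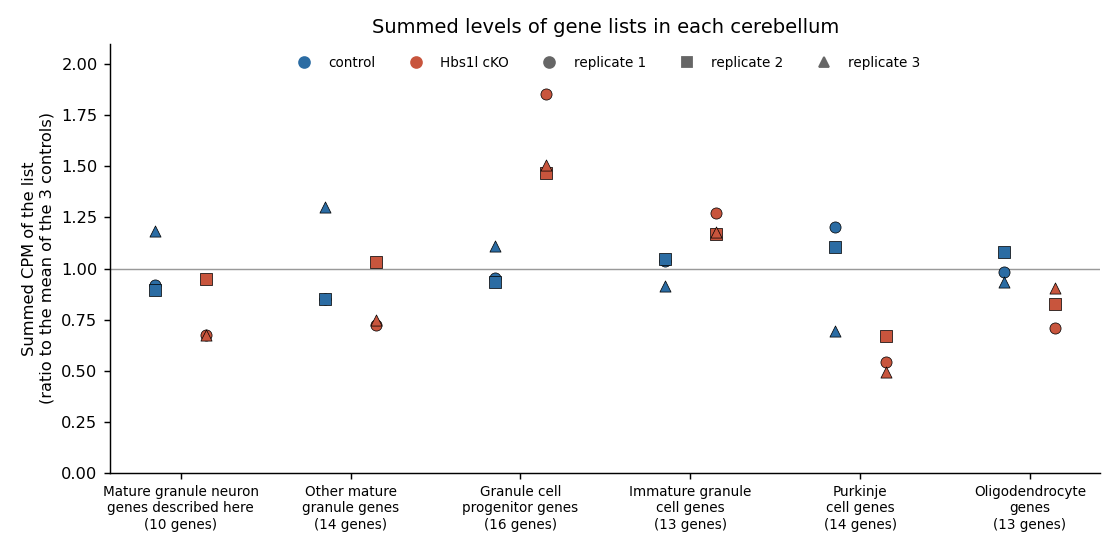
Summed CPM of 6 gene lists in each cerebellum, divided by the mean of the 3 controls; colours mark the group and symbols the replicate. The sums of precursor and immature granule cell genes are higher in every cKO library than in any control, those of Purkinje cell and oligodendrocyte genes are lower, and those of both mature granule lists overlap.

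Outside the cerebellum the members were at far lower levels. Cbln1 and Zic1 were the only members to pass the filter on low counts in embryos, so the levels in control cerebella and wild type embryos are given as a description, with no test. Tissue, age, strain and batch cannot be told apart in this comparison. Gabra6 and Kcnd2 had no count in the 3 control embryos, so Gabra6 was at least 2506-fold higher in the control cerebella, and Kcnd2 at least 533-fold, against a floor of 3 counts over the group (0.311 CPM of library totals). Cbln3 and Neurod1 had 1 count each over the control embryos, which gives ratios of 4988 (95% exact interval 895 to 197010) and 9733 (1747 to 384445). The ratio was 1098 (578 to 2401) for Calb2, 515 (357 to 776) for Fat2, 187 (86.0 to 510.3) for Grin2c, 124 (96.9 to 161) for Zic1, 85.5 (67.2 to 111) for Cbln1 and 65.3 (33.1 to 151) for Etv1. These intervals and the floor cover counting error only.

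**Figure D4:**
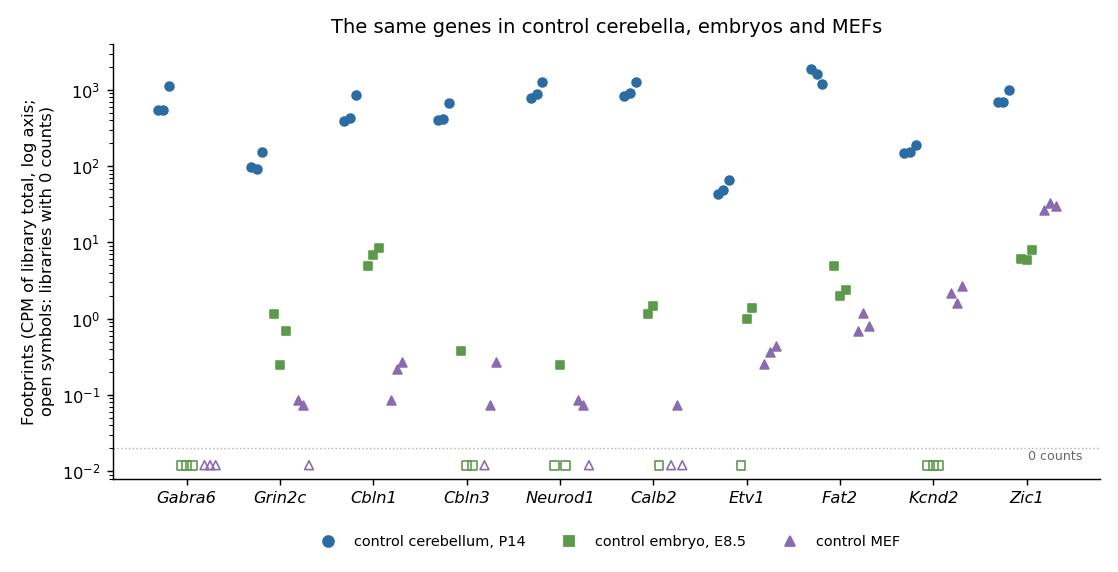
Level of each member (CPM of library totals, log axis) in the control cerebella, control embryos and the MEF controls of the Hbs1l pool; open symbols are libraries with 0 counts. Gabra6 has no count in any embryo or MEF control shown, and Zic1 is the member with the highest level in MEFs.

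In embryos, 2 members, Cbln1 and Zic1, passed the filter. Zic1 marks the neural plate at this stage; it had 17, 5 and 6 counts in the Hbs1l -/- replicates and 16, 24 and 23 in the wild type replicates. After scaling, these were 1.95 ± 0.608 and 6.85 ± 1.13 CPM, with no overlap, as for 12.3% of 11416 genes. Zic1 passed the filter only through the wild type libraries, where it was higher. The filter thus favoured a lower value in the mutants, and no conclusion is drawn from the test that follows. The log2 fold change was -1.77 (SE 0.46, edgeR adjusted p = 0.0656) and did not pass the threshold, where 0.955% of genes were called lower; it passed with DESeq2 (-1.79, adjusted p = 0.0489), with no filter on low counts (-1.78, adjusted p = 0.0392) and without Hbs1l -/- replicate 1 (-2.01, adjusted p = 0.0199). Cbln1 had 79, 37 and 8 counts in the Hbs1l -/- replicates and 13, 28 and 25 in the wild type, a log2 fold change of 0.20 (SE 0.44, edgeR adjusted p = 0.831) that was -0.15 without Hbs1l -/- replicate 1. Hbs1l fell by 3.60 on the log2 scale in the mutant embryos (edgeR adjusted p = 9.85e-05).

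The difference of the Hbs1l effect between cerebellum and embryo was tested as an interaction over 12 libraries for Cbln1 and Zic1, the members that passed the filter in each tissue. Etv1 and Fat2 also had a mean of at least 1 CPM in both, but at 0 to 15 and 4 to 13 counts an embryo library they did not pass the filter there, and no test of theirs is given. Zic1 had 0.26 in the cerebellum and -1.77 in the embryo. Its interaction was 2.01 (SE 0.36, edgeR adjusted p = 0.0225), where 0.465% of 14624 genes were called in that direction. In embryos Zic1 passed the filter only through the wild type libraries, where it was higher. Its choice for this test thus favoured a low embryo value, and no difference between tissues is concluded. The call was lost, at values from 1.79 to 2.05 and adjusted p from 0.0546 to 0.0901, when Hbs1l -/- embryo replicate 2 or 3, any wild type embryo replicate (1, 2 or 3) or control cerebellum replicate 2 was left out. The interaction of Cbln1 (-0.47, SE 0.56, edgeR adjusted p = 0.719) did not pass. Both copies of Hbs1l are lost in all cells of the embryos, but only in the Atoh1 lineage of the cKO cerebella, and this cannot be told apart from tissue, age and strain.

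In MEFs, Zic1 was the member with the highest footprint level, although 27.0 times lower (25.5 to 28.7) than in the control cerebella by library totals. The controls of the 3 pools are not independent: same-numbered control libraries were close to counting noise (mean chi-square per gene 1.10 to 1.19 over 9 pairs, against 4.07 to 11.7 over 18 other pairs), so the 3 comparisons share their controls. In Hbs1l cKO MEFs Zic1 had 16.7, 16.7 and 16.7 CPM of library totals, below the 26.9, 32.8 and 29.6 of the controls, and it fell by 0.86 on the log2 scale (SE 0.11, edgeR adjusted p = 6.93e-05, where 16.7% of 11984 genes were called lower). In Pelo cKO MEFs it had 10.5, 11.97 and 14.9 CPM of library totals against 24.99, 31.2 and 28.9, and it fell by 1.20 on the log2 scale (SE 0.14, edgeR adjusted p = 9.67e-05, where 21.2% of 12486 genes were called lower). In the libraries labelled Upf2 cKO it had 12.6, 16.5 and 24.6 CPM of library totals against 25.1, 32.6 and 27.5, and it fell by 0.71 on the log2 scale (SE 0.19, edgeR adjusted p = 0.0119, where 21.1% of 12166 genes were called lower); without the second of these libraries it was -0.63 (adjusted p = 0.0614). On the log2 scale, Hbs1l fell by 4.15 in the Hbs1l cKO MEFs and Pelo fell by 3.78 in the Pelo cKO MEFs, but Upf2 was higher in the libraries labelled Upf2 cKO, at 116 ± 2.90 CPM against 54.1 ± 4.63 (log2 fold change 1.09, edgeR adjusted p = 3.12e-06). The deposited counts are per gene and do not show on which exons the footprints lie, so Upf2 does not check these labels, and the groups are given as labelled.

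Kcnd2 and Fat2 were the other members tested in MEFs, both at low levels. Kcnd2 had 7, 12 and 26 counts in the Pelo cKO replicates and 25, 16 and 20 in the controls, or 0.716 ± 0.291 and 1.76 ± 0.450 CPM, and it fell by 1.24 on the log2 scale (SE 0.38, edgeR adjusted p = 0.0241). In that fit 21.2% of 12486 genes were called lower. The controls, where Kcnd2 was higher, met the filter on low counts by themselves, and the Pelo cKO libraries did not. The filter thus favoured a fall of Kcnd2, and no conclusion is drawn from its call. That call was lost without Pelo cKO replicate 1 (-0.99), control replicate 1 (-1.06) or control replicate 3 (-1.24), at adjusted p from 0.0677 to 0.114. Kcnd2 had -0.56 (SE 0.34, adjusted p = 0.222) in Hbs1l cKO MEFs and -0.59 (SE 0.30, adjusted p = 0.132) in the libraries labelled Upf2 cKO. Fat2 had 3, 5 and 2 counts in the libraries labelled Upf2 cKO and 14, 22 and 21 in their controls, or 0.410 ± 0.120 and 1.32 ± 0.283 CPM, and it fell by 1.66 on the log2 scale (SE 0.42, edgeR adjusted p = 0.00808). Fat2 passed the filter here only through these controls, where it was higher. The filter thus favoured a fall, and no conclusion is drawn from this call. In Pelo cKO MEFs Fat2 had 0.59 (SE 0.48, edgeR adjusted p = 0.343), 0.11 (adjusted p = 0.869) without Pelo cKO replicate 2, 0.31 (adjusted p = 0.667) without control replicate 3 and 1.14 (adjusted p = 0.130) without control replicate 2. There the Pelo cKO libraries, where Fat2 was higher, met the filter by themselves and the controls did not, so no conclusion is drawn from that value.

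**Figure D5:**
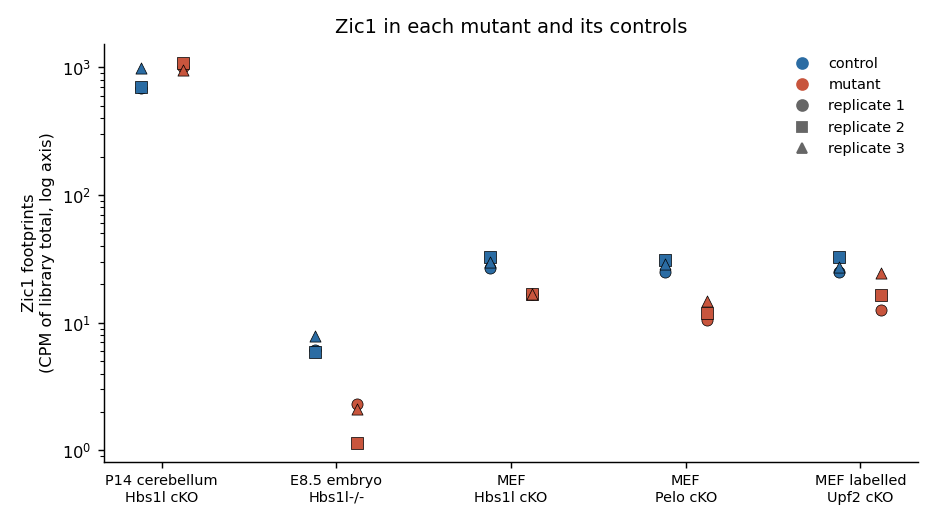
Zic1 footprints (CPM of library totals, log axis) in the libraries labelled as mutant (red) and their controls (blue), 3 replicates each; the MEF controls of the 3 pools are not independent. Red points lie below blue ones in embryos and MEFs and overlap them in cerebella; Upf2 itself is not lower in the libraries labelled Upf2 cKO.

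MEF RNA, as deposited TPM summed per gene, gave low values for the members. Gabra6 was at 0 in all 11 libraries. Zic1 had 4.75, 5.17 and 5.42 TPM in the controls, 3.19, 3.69 and 2.46 TPM in the Hbs1l cKO libraries, 5.55 and 7.15 TPM in the Pelo cKO libraries, and 3.19, 4.80 and 3.99 TPM in the libraries labelled Upf2 cKO. The Hbs1l cKO libraries lay below the controls and the Pelo cKO libraries above them, and these differences were not tested. Etv1 had 0.904 to 1.39 TPM in the controls, and the remaining members were below 1 TPM in every RNA library.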

How the data were processed

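For footprints, the authors deposited raw counts, 1 per gene and library, made by removing reads on structural RNA with bowtie2 2.2.3, mapping to mm10 with hisat2 2.1.0 and counting reads on coding sequences (Gencode M24) with featureCounts. MEF RNA was deposited by transcript as estimated counts and TPM, made by the authors with kallisto 0.42.4; TPM was summed per gene here, and neither was tested. Footprint intervals and floors cover counting error only.

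Fits used edgeR 4.0.16 (R 4.3.3) on the libraries of 1 comparison at a time: histone symbols left out, filterByExpr, TMM factors, the two-sided quasi-likelihood test, and Benjamini-Hochberg adjustment over all genes tested, with a threshold of 0.05. The SE given with an edgeR log2 fold change is its absolute value divided by the square root of the F statistic of the test. The fit was tested on simulated data. Alternatives were DESeq2 1.42.0, RLE factors, library totals, no filter, histones kept, the replicate number as a block, and leaving out each library. Coordinates are from Gencode M21 (GRCm38). The members and gene lists were chosen with earlier results of these data known. Named were the members, the targeted genes and, of each list, called genes and up to 3 with the largest change among those with an unadjusted p below 0.05 and at least 5 CPM. Some genes that this rule names are not reported here. A replicate was 1 cerebellum, a pool of embryos or, for MEFs, cells of an individual embryo.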

Additional observations from a re-analysis of the deposited data

Results flagged for a closer look

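For Zic1, the log2 fold change on Hbs1l loss in the cerebellum minus that in the embryo was 2.01 in the test over 12 libraries (edgeR adjusted p = 0.0225). In embryos Zic1 passed the filter only through the wild type libraries, where it was higher, so no difference between tissues is concluded. Zic1 was higher in the cKO cerebella by a log2 fold change of 0.26, where its groups overlapped, and had -1.77 in the Hbs1l -/- embryos, where it had 5 to 17 counts a library against 16 to 24 in the wild type. The adjusted p was above 0.05 in 6 of the 12 fits that left out 1 library, at 0.0546 to 0.0901.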

How the results depend on the processing

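In the cerebellum, the number of called genes (9) was 484 with DESeq2, 16 with no filter on low counts, 67 with histones kept and 0 to 560 when 1 library was left out; the number of called members (0) was 2 with DESeq2, Gabra6 and Cbln3, and 0 in each leave-one-out fit. Over these fits the log2 fold change of Cbln1 ranged from -0.45 to 0.23 and that of Neurod1 from -0.29 to 0.031, both reversed without control replicate 3, and the other 8 members kept their direction under the alternatives run. Scaling by library totals moved the median of all genes by 0.102 and the members' median to -0.31, with the same 9 of 10 lower. In embryos, the number of called genes (214) was 432 with DESeq2, 139 with library totals, 703 with no filter and 28 to 2309 when 1 library was left out; the number of called members (0) was 1 with DESeq2, 1 with no filter and 0 to 1 when a library was left out, each time Zic1, and Cbln1 ranged from -0.15, reversed without Hbs1l -/- replicate 1, to 0.55. For the difference between tissues, the number of called genes (107) was 585 with DESeq2, 189 with library totals and 8 to 1123 when 1 library was left out, and the number of called members 0 to 1. In MEFs, the number of called members (2 each) was 1 to 2 for Pelo cKO and 1 to 2 for the libraries labelled Upf2 cKO when 1 library was left out. The causes of these moves were not tested, except that leaving out a library leaves fewer samples.

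Same-numbered cerebella did not vary together (correlation of deviations 0.22, -0.24 and 0.04), so the numbers do not pair the samples. With the replicate number as a block, called genes numbered 0 in the cerebellum and 564 in embryos, and the members' median in the cerebellum was -0.42. Most members had under 30 counts a library in embryos and MEFs, so counting error limits their values there. Totals were lower in embryos than in cerebella, while those of MEFs, 5782990 to 25607974, overlapped those of cerebella.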

Other observations

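Other cell types in the cerebella, given as values: the 9 microglia genes were all higher in the cKO with a median log2 fold change of 0.30 and none called. The median was 0.19, with 6 of 9 higher, without cKO replicate 3, and 8 of 9 were higher without control replicate 1. It was 0.42 without control replicate 3, where Cx3cr1, a chemokine receptor gene, was called at 0.65 (edgeR adjusted p = 0.0377). Among the 9 were Csf1r, the receptor for colony stimulating factor, at 91.2 ± 1.80 and 73.0 ± 3.55 CPM (SD, n = 3), and P2ry12, a purine receptor of resting microglia, at 0.50 (SE 0.18, edgeR adjusted p = 0.293). Fabp7, a fatty acid binding protein of Bergmann glia, had 1074 ± 149 and 665 ± 161 CPM with no overlap (0.69, SE 0.20, edgeR adjusted p = 0.194, and 0.90, adjusted p = 0.0258, without control replicate 3). Gfap, of reactive astrocytes, had 0.74 (SE 0.26, edgeR adjusted p = 0.283), and 1.12 (adjusted p = 0.0149) without control replicate 3. Of the 10 vascular genes 9 were lower with a median of -0.29 and none called. With 1 library left out that median ranged from -0.19 to -0.42, the latter without control replicate 3, where 2 were called, the VEGF receptor genes Flt1 (-0.91, edgeR adjusted p = 0.0141) and Kdr (-0.79, adjusted p = 0.0191). Of the 5 blood genes 5 were lower with a median of -0.42 and none called, which was -0.63 without control replicate 3 and -0.20, with 4 lower, without control replicate 2. Slc6a4, the serotonin transporter gene of raphe neurons, had 28.4 ± 31.5 CPM in the cKO and 0.531 ± 0.181 CPM in the controls (edgeR adjusted p = 0.126, and 0.0264 without cKO replicate 2, where Slc5a7 and Tph2 of the same list were also called higher). The choroid plexus sums were 3319 to 5354 CPM in the cKO and 989 to 4441 CPM in the controls, and those of 6 meningeal genes were 1273 to 2916 and 1048 to 3989 CPM.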
